A study of Mus musculus with 8 samples.

Results

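The genes described here are 49 genes of DNA replication and nucleotide supply, out of 19938 genes measured in cultures labelled as vascular smooth muscle cells. They were taken from a list of gene symbols chosen for their function, and all 49 had a value. The list was chosen with earlier results of these data known, so its counts beside those of all genes describe it and test nothing. By their labels, the samples were primary cultures of aortic smooth muscle cells taken from C57Bl6 mice. They were used at passage 3 to 4 and grown in DMEM with 10% fetal calf serum. The control group was 4 arrays of cells without addition, and the treated group was 4 arrays of cells exposed for 24 h to 100 nM jasplakinolide, a cell-permeable sponge compound that binds and stabilises actin filaments. The labels name no genotype beyond the strain and no separate cultures or animals, so p-values measure the spread between these arrays, which may be technical.

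Before S phase, origin recognition complex proteins with Cdc6 and Cdt1 load the MCM helicase on DNA, and the cell then activates it with Cdc45, the GINS complex and Mcm10. DNA polymerase alpha with its primase starts each strand, polymerases epsilon and delta extend the strands, and PCNA, its RFC loader, Fen1 and Lig1 serve the lagging strand. Ribonucleotide reductase, thymidylate synthase and thymidine kinase supply the deoxynucleotides. Many of these genes are known targets of E2F transcription factors, and their transcripts are abundant in dividing cells and scarce in resting ones, as smooth muscle cells of the intact vessel wall mostly are.

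Values are log2 expression levels from RMA, a method that normalises arrays and summarises the probes of a gene, and a difference of log2 levels is given as jasplakinolide minus control. The 8 arrays had medians of 7.30 to 7.39 over their probe sets, and their number limits the precision. On the first principal component of all genes (43.3% of the variance), control 2 (12.1) and jasplakinolide 4 (19.4) stood apart at one end and control 1 (-13.4) and control 3 (-14.3) at the other, with the remaining 4 arrays between -4.6 and 4.7. Main counts are given also without either set of arrays. Among markers, 5 of 8 smooth muscle genes rose (Acta2, Tagln, Cnn1, Myh11 and Lmod1). Acta2 and Tagln had the highest control means of the 8 (13.41 and 12.55 log2), and Des the lowest (7.57). The call of Acta2 (limma adjusted p = 0.0337) was lost whichever array was left out (0.0593 to 0.128). Of the 8 endothelial markers, Cdh5 (13.17) and Pecam1 (12.48 log2) were the brightest in control, and Kdr (9.07) and Vwf (8.08) the dimmest. Cdh5 and Pecam1 were thus about as bright in control as Acta2 and Tagln. Which cells gave this signal was not tested. Of the 6 macrophage markers, 4 had control means below the array medians of 7.90 to 7.93 log2 over all genes (Ptprc and Adgre1 7.40, Csf1r 7.86, Cd14 6.94), and Cd68 (9.03) and Lyz2 (10.45) lay above them.

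All 49 genes had a lower mean level with jasplakinolide, whereas 43.6% of all genes tested did. Without control 1 and control 3 it was 45 of the 49, all but Orc1, Pold2, Rpa3 and Ccne2 (0.0 to 0.03 log2). The median difference was -0.14 on the log2 scale, against 0.01 for all genes, and the members ranged from -0.32 for Dscc1 to -0.03 for Pold1. Only Rrm2, the small subunit of ribonucleotide reductase, passed the test over all genes (limma, Benjamini-Hochberg adjusted p under 0.05), and it was 1.20-fold lower. That is 1 of 49 members lower and none higher, against 0.336% of all genes lower and 0.436% higher (0.772% in either direction). With the replicate number as a block it was again Rrm2 alone, against 1.08% of all genes lower. Without adjustment 27 of the 49 had a limma p under 0.05 and a lower mean, as did 4.71% of all genes. The count of members that fell depends on the normalisation and the variance model. It was 6 (Cdt1, Lig1, Mcm7, Pole, Rrm1 and Rrm2) both after cyclic loess (0.843% of all genes lower) and after a second quantile normalization (0.838%). It was 4 of the 46 members among the brighter 50% of genes (1.41%), 3 with array weights (1.17%) and 3 with a robust, intensity-dependent variance prior (0.828%). After median centring it was 0 (0.271%).

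The promoters of the members whose differences were among the 3 largest in their role, and which hold an E2F-type motif, are printed here. They show where the motif lies, and were picked for holding it, so that they share it is no result. That of Rrm2 is printed with them. RefSeq promoter windows of 300 bases (250 before the annotated start and 50 from it, build GRCm38.p6) matched 38 of the 49 members, with 44 windows. Gmnn, Mcm4, Gins1, Gins2, Gins4, Prim2, Pole, Rfc2, Dscc1, Tipin and Ccne2 had no entry. The E2F-type motif was searched on both strands as TTTGGCGC, TTTCCCGC, TTTGCCGC or TTTCGCGC. It stood in the windows of 14 of the 38 members (36.8%), namely Cdc6, Cdt1, Gins3, Lig1, Mcm3, Mcm5, Mcm6, Mcm7, Orc1, Pola1, Pold1, Pole2, Rfc3 and Uhrf1. Of all 27025 genes with a window 704 held it (2.6%), and of 17491 protein-coding genes 575 did (3.29%). The windows of the members had a median G+C content of 60.7%, against 56.3% over windows of protein-coding genes. A match is a description of the letters and not a measured binding site.

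In the following 7 sequences, written 5′ to 3′ on the gene's strand, capitals mark each E2F-type motif. Positions count from the annotated start. They lie at chrX:93632106-93632405, minus strand (Pola1, motif from position -138), chr7:13278576-13278875, plus strand (Lig1, 27, in one of 3 windows of that gene), chr8:122567765-122568064, plus strand (Cdt1, 33), and chr1:20820263-20820562, minus strand (Mcm3, 20 and 39). The others lie at chr5:138171834-138172133, minus strand (Mcm7, -165 and 17), chr8:95633309-95633608, plus strand (Gins3, -41) and chr17:56304063-56304362, plus strand (Uhrf1, -185). None of the motifs shown overlapped the SP-type motif GGGCGG, and that of Mcm7 at 17 overlapped a CCAAT box.
Pola1: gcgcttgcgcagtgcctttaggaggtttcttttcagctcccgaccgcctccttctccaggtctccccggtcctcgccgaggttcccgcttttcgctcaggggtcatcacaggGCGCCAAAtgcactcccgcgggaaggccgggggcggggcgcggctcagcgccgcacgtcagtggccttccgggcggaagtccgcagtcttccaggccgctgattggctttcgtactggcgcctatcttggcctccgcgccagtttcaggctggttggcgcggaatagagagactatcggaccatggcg
Lig1: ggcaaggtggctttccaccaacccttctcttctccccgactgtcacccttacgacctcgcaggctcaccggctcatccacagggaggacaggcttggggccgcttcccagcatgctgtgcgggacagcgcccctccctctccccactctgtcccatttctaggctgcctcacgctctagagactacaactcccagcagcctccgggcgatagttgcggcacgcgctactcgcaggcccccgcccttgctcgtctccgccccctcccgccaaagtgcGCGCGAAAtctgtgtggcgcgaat
Cdt1: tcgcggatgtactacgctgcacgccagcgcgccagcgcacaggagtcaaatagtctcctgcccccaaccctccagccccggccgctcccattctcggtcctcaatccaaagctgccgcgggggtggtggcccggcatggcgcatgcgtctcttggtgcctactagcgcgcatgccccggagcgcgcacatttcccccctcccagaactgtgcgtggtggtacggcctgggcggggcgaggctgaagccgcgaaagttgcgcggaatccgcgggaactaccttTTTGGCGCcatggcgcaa
Mcm3: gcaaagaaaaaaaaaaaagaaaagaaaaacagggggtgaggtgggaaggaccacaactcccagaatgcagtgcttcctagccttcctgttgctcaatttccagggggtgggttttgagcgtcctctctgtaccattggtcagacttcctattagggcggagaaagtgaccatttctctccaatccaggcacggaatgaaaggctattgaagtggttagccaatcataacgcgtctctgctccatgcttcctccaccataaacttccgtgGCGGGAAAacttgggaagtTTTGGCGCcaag
Mcm7: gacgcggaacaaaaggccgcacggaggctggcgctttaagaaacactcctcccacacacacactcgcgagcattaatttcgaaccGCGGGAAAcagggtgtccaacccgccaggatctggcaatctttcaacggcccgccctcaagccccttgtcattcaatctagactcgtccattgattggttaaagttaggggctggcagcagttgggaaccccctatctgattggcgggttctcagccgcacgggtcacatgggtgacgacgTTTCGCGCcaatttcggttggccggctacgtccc
Gins3: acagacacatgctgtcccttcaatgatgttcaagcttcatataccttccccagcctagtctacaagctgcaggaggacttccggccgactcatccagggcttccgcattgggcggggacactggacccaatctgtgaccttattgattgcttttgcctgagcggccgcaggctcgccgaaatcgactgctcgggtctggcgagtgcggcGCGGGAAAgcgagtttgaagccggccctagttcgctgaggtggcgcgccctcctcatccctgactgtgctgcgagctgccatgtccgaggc
Uhrf1: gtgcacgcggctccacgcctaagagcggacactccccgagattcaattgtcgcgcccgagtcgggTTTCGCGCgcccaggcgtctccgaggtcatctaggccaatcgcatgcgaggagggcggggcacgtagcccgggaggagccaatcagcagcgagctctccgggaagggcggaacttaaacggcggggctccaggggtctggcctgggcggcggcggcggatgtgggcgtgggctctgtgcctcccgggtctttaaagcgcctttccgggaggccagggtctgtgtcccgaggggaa

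Rrm2, the member that passed the test, had none of these 4 E2F-type strings in its window at chr12:24708004-24708303, plus strand. Its sequence is shown with a CCAAT box, the site of the factor NF-Y, in capitals, which begins at position -50.
Rrm2: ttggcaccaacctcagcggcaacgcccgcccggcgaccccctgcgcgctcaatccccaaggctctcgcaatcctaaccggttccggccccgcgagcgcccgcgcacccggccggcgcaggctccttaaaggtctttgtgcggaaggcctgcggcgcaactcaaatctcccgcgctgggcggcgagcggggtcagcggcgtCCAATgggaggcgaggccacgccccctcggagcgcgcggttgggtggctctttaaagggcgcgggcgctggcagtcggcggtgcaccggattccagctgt

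The CCAAT box (CCAAT on either strand) stood in the windows of 23 of the 38 members (60.5%) and of 42.3% of protein-coding genes. The SP-type motif GGGCGG stood in 29 of 38 (76.3%) against 49.2%, and the CHR, TTTGAA, a motif known from genes of late cell cycle phases, in 5 of 38 (13.2%) against 18.5%. Among the 38 members with a window, those with the E2F-type motif had a median log2 difference of -0.16 and those without it -0.12. For the CHR it was -0.16 with and -0.14 without, and for the CCAAT box -0.14 and -0.13. The SP-type motif went the other way, with -0.14 in members that hold it and -0.16 in the rest. These medians describe chosen genes with no test, and leave out the members with no window, such as Dscc1 and Pole.

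The genes of nucleotide supply stood lowest as a group, with a median difference of -0.18 over 4 genes, of which 1 fell and 3 did not pass. Rrm2 lay at 11.74, 11.62, 11.65 and 11.61 log2 in control 1 to 4 and at 11.47, 11.37, 11.39 and 11.34 in jasplakinolide 1 to 4. The groups did not overlap, with a gap of 0.14 between the lowest control and the highest treated array. Rrm2 fell by 0.27 on the log2 scale (SE 0.05, 95% interval -0.38 to -0.16, limma adjusted p = 0.0467), from 11.66 ± 0.06 to 11.39 ± 0.05 (SD, n = 4 each). Its call sits close to the threshold. Leaving out any 1 of the 8 arrays gave an adjusted p of 0.0640 (without control 2) to 0.155 (without jasplakinolide 2), with differences from -0.29 to -0.24. Without control 2 and jasplakinolide 4 together the adjusted p was 0.112 and the difference -0.26, and median centring gave 0.0573. Without control 1 and control 3 together the adjusted p was 0.383 and the difference -0.23.

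Rrm1, the large subunit of the same enzyme, lay at 12.08, 11.93, 12.03 and 12.00 log2 in control and at 11.84, 11.78, 11.80 and 11.80 with jasplakinolide. Its groups did not overlap either, and the treated arrays differed by no more than 0.06. The difference of -0.21 ± 0.05 (SE) missed the threshold (limma adjusted p = 0.0941). It passed with array weights (0.0262), among the brighter 50% of genes (0.0264), after cyclic loess (0.0236) or a second quantile normalization (0.0344), and with a robust variance prior that follows intensity (0.00731).

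Tyms, which encodes thymidylate synthase, lay at 10.53, 10.31, 10.52 and 10.42 log2 in control and at 10.27, 10.19, 10.35 and 10.31 with jasplakinolide. Control 2 reached into the treated range, and the difference of -0.16 ± 0.06 (SE) did not pass; without control 2 it was -0.21. Tk1, thymidine kinase of the salvage pathway, lay at 9.76, 9.71, 9.79 and 9.76 in control and at 9.58, 9.54, 9.70 and 9.67 with jasplakinolide. Its groups were separated by 0.01, and the difference of -0.13 ± 0.05 did not pass. Another list, also chosen with earlier results of these data known, held 27 measured further genes of nucleotide synthesis, with a median of -0.06. Of these 1 fell (0.336% of all genes), none rose (0.436%) and 26 did not pass. The gene that fell was Dck, deoxycytidine kinase, another salvage enzyme, from 9.42 ± 0.07 to 9.11 ± 0.05 log2 (SD, n = 4 each; difference -0.30 ± 0.05, SE; adjusted p = 0.0371). When arrays were omitted in turn, it passed without control 2 (adjusted p = 0.0396) and in no other case (up to 0.129). Mthfd2, a mitochondrial folate enzyme that feeds purine synthesis, differed by 0.17 ± 0.05 (SE) the other way and did not pass.

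**Figure D1:**
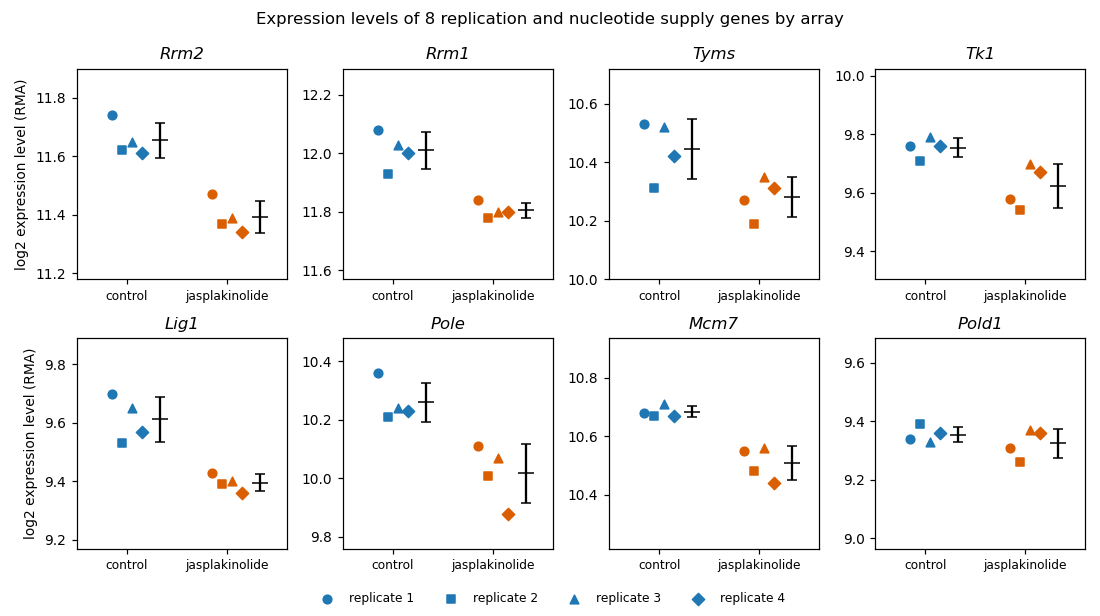
Log2 expression level (RMA) of 8 genes in each of the 4 control arrays (blue) and 4 jasplakinolide arrays (orange), with 1 marker shape per replicate number; the black bar is the group mean ± SD, and every panel spans the same height on its axis. The groups are separate for Rrm2, Rrm1, Tk1, Lig1, Pole and Mcm7, and overlap for Tyms and Pold1.

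In origin licensing, 11 genes had a median difference of -0.14 and none passed. The 6 subunits of the MCM helicase lay close together, from -0.18 for Mcm3 to -0.13 for Mcm4. The groups did not overlap for 5 of the 6, with gaps of 0.01 to 0.11, against 3.29% of all genes lower in this way. Mcm7 lay at 10.68, 10.67, 10.71 and 10.67 log2 in control and at 10.55, 10.48, 10.56 and 10.44 with jasplakinolide. That left a gap of 0.11 between the groups, and the difference was -0.17 ± 0.04 (SE, limma adjusted p = 0.155). Mcm3 lay at 9.86, 9.70, 9.80 and 9.72 in control and at 9.64, 9.62, 9.69 and 9.43 with jasplakinolide, with jasplakinolide 4 well below the rest; without that array the difference was -0.12. Mcm2, Mcm5 and Mcm6 differed by -0.16, -0.16 and -0.14.

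Cdt1, the licensing factor that is degraded once S phase begins, lay at 9.81, 9.71, 9.82 and 9.77 log2 in control and at 9.65, 9.59, 9.62 and 9.44 with jasplakinolide. The groups did not overlap and the difference was -0.20 ± 0.06 (SE, adjusted p = 0.212). Gmnn, which encodes geminin, the inhibitor of Cdt1, differed by -0.14 ± 0.05 (SE). The loading ATPase gene Cdc6 (-0.10 ± 0.07) and the origin recognition genes Orc1 (-0.10 ± 0.10) and Orc6 (-0.07 ± 0.06) had overlapping groups and intervals that include 0.

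Of the 6 genes of helicase activation none passed, and their median was -0.14. Mcm10 lay at 8.81, 8.55, 8.69 and 8.61 log2 in control and at 8.57, 8.49, 8.51 and 8.36 with jasplakinolide, a difference of -0.19 ± 0.07 (SE). Here jasplakinolide 1 reached just above control 2. The 4 GINS genes ranged from -0.17 for Gins3 to -0.09 for Gins4. Gins3 lay at 9.12, 8.75, 9.13 and 9.02 in control and at 8.95, 8.78, 8.86 and 8.75 with jasplakinolide. Gins1 lay at 8.53, 8.32, 8.67 and 8.49 in control and at 8.41, 8.38, 8.44 and 8.18 with jasplakinolide. In both genes control 2 was among the treated arrays, and their differences (-0.17 ± 0.09 and -0.15 ± 0.08, SE) have intervals that include 0. Without control 2 they were -0.25 and -0.21, and that of Gins1 was -0.09 without jasplakinolide 4. Cdc45, the helicase cofactor, differed by -0.09 ± 0.04 and Gins2 by -0.13 ± 0.05.

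Of the 8 roles, the polymerase and primase genes had the widest range of differences, from -0.31 to -0.03, and none of the 8 passed. Pola1, the catalytic subunit of polymerase alpha, lay at 9.25, 8.94, 9.18 and 9.06 log2 in control and at 8.94, 8.84, 8.82 and 8.59 with jasplakinolide. Only control 2 and jasplakinolide 1 met, at 8.94, and the difference was -0.31 ± 0.09 (SE, adjusted p = 0.226), 1.24-fold lower. Prim1, the catalytic primase subunit, lay at 9.67, 9.32, 9.49 and 9.50 in control and at 9.39, 9.18, 9.21 and 9.14 with jasplakinolide (-0.26 ± 0.08, adjusted p = 0.262). Pole, the catalytic subunit of the leading-strand polymerase epsilon, lay at 10.36, 10.21, 10.24 and 10.23 in control and at 10.11, 10.01, 10.07 and 9.88 with jasplakinolide. Its groups did not overlap, and the difference was -0.24 ± 0.06 (adjusted p = 0.152). The partner subunits Pole2 (-0.16), Prim2 (-0.13) and Pola2 (-0.08) differed by less. For polymerase delta the differences were small. Pold1, its catalytic subunit, lay between 9.33 and 9.39 in control and between 9.26 and 9.37 with jasplakinolide (95% interval of the difference -0.13 to 0.07), and Pold2 differed by -0.06 ± 0.05.

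Whether partners differed from each other was tested on the within-array difference of their log2 levels, for 9 partner pairs chosen after the values had been seen. The difference Pola1 minus Pola2 was -0.32, -0.47, -0.38 and -0.36 in control and -0.53, -0.57, -0.58 and -0.75 with jasplakinolide, so that it shifted by -0.22. Pole minus Pole2 shifted by -0.08, and in both pairs the groups did not overlap (exact permutation test, two-sided, p = 0.0286 each, the smallest that 4 against 4 arrays allow). Adjusted over the 9 pairs both had p = 0.129 (exact permutation test). With that smallest p, an adjusted value under 0.05 needs at least 6 fully separated pairs, so the adjusted values say little here. Prim1 minus Prim2 shifted by -0.14 and Rrm2 minus Rrm1 by -0.06 (exact permutation p = 0.0857 each, adjusted 0.193). The pairs of Cdt1 and Gmnn, Chaf1a and Chaf1b, Timeless and Tipin, Pold1 and Pold2, and Ccne1 and Ccne2 shifted by -0.06 to 0.05.

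Of 12 genes for the sliding clamp, its loaders, replication protein A and the joining of lagging-strand fragments none passed, and their median was -0.15. Lig1, the ligase that seals lagging-strand fragments, lay at 9.70, 9.53, 9.65 and 9.57 log2 in control and at 9.43, 9.39, 9.40 and 9.36 with jasplakinolide. The groups were 0.10 apart, the treated arrays lay within a narrow band, and the difference was -0.22 ± 0.05 (SE, adjusted p = 0.107). It passed with array weights (0.0483), among the brighter 50% of genes (0.0354), after cyclic loess (0.0318) and after a second quantile normalization (0.0344). Dscc1, part of an alternative clamp loader that acts with sister chromatid cohesion, had the largest difference of the members, -0.32 ± 0.09 (SE, adjusted p = 0.211). Its probe set had a low signal (lowest 17.3% of genes), at 6.29, 6.02, 6.07 and 6.06 in control and at 5.78, 5.66, 6.02 and 5.70 with jasplakinolide. Only jasplakinolide 3 reached the lowest control array.

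The 5 subunits of the RFC clamp loader ranged from -0.18 to -0.12. The groups did not overlap for 3 of them, Rfc2, Rfc4 and Rfc5, with gaps of 0.01 to 0.03 (3.29% of all genes lower in this way). Rfc4 lay at 11.29, 11.06, 11.16 and 11.14 log2 in control and at 11.03, 10.96, 11.01 and 10.92 with jasplakinolide (-0.18 ± 0.06, SE). The clamp itself, Pcna, differed by -0.08 ± 0.04, from 12.09 ± 0.05 to 12.01 ± 0.04 (SD, n = 4 each). Its other probe set gave -0.09. The 3 genes of replication protein A, which coats unwound DNA, differed by -0.12 to -0.11 and had overlapping groups, and Fen1, the flap nuclease, differed by -0.16 ± 0.08 (SE). The other probe sets of Rpa3 (-0.10) and Tk1 (-0.12) gave differences close to those of the brighter ones.

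The 3 genes that restore chromatin behind the fork were close to each other. In all of them the groups did not overlap (3.29% of all genes lower in this way), though none passed. Chaf1a, the large subunit of the histone chaperone CAF-1, lay at 9.14, 9.03, 9.10 and 9.10 log2 in control and at 8.97, 8.97, 8.93 and 8.84 with jasplakinolide (-0.16 ± 0.05, SE). Its partner Chaf1b lay at 10.10, 10.07, 10.19 and 10.16 in control and at 9.98, 9.99, 10.06 and 9.98 with jasplakinolide (-0.13 ± 0.05). Uhrf1, which brings the maintenance methyltransferase to newly copied DNA, lay at 9.76, 9.68, 9.79 and 9.72 in control and at 9.61, 9.59, 9.65 and 9.55 with jasplakinolide (-0.14 ± 0.05). The gaps between the groups were small, 0.06 for Chaf1a, 0.01 for Chaf1b and 0.02 for Uhrf1. Of 12 further factors of chromatin replication none passed, and their median was also -0.14. The largest differences among them were those of Hells (-0.30 ± 0.11, SE), a chromatin remodeller, and Mms22l (-0.22 ± 0.10), a fork repair factor.

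The fork protection partners had overlapping groups. Timeless lay at 8.04, 8.09, 8.23 and 8.14 log2 in control and at 7.90, 8.0, 8.01 and 8.10 with jasplakinolide (-0.12 ± 0.06, SE). Tipin lay at 9.87, 9.37, 9.73 and 9.56 in control and at 9.58, 9.49, 9.48 and 9.30 with jasplakinolide (-0.17 ± 0.10), and its control arrays were spread widely (SD 0.22). Its difference was -0.26 without control 2 and -0.09 without control 1.

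The regulators of S phase entry differed least as a role, with a median of -0.09 over 3 genes, none of which passed or had separate groups. E2f1, an activator of replication genes, lay at 10.41, 10.36, 10.26 and 10.26 log2 in control and at 10.27, 10.23, 10.24 and 10.19 with jasplakinolide (-0.09 ± 0.05, SE). The cyclin E genes drive Cdk2 at the start of S phase. Ccne1 lay at 10.60, 10.41, 10.57 and 10.54 in control and at 10.50, 10.40, 10.49 and 10.34 with jasplakinolide (-0.10 ± 0.06). Ccne2 lay at 9.98, 9.67, 9.98 and 9.89 in control and at 9.85, 9.84, 9.83 and 9.69 with jasplakinolide (-0.08 ± 0.08). The 95% intervals of all 3 differences include 0, and that of Ccne2 runs from -0.25 to 0.09. A further list held 16 measured genes, with a median of -0.06. They were E2F, DP and pocket protein genes, with Cdk2, Ccna2 and the Cdk regulators Cdc25a and Cdkn1b. None passed, and 1 was lower with the replicate number as a block (1.08% of all genes). The largest differences there were those of E2f8 (-0.25 ± 0.09, SE), a repressor of the family, and Ccna2 (-0.22 ± 0.05), the cyclin of S and G2 phase, whose adjusted p was 0.0986 and 0.0499 with the block.

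**Figure D2:**
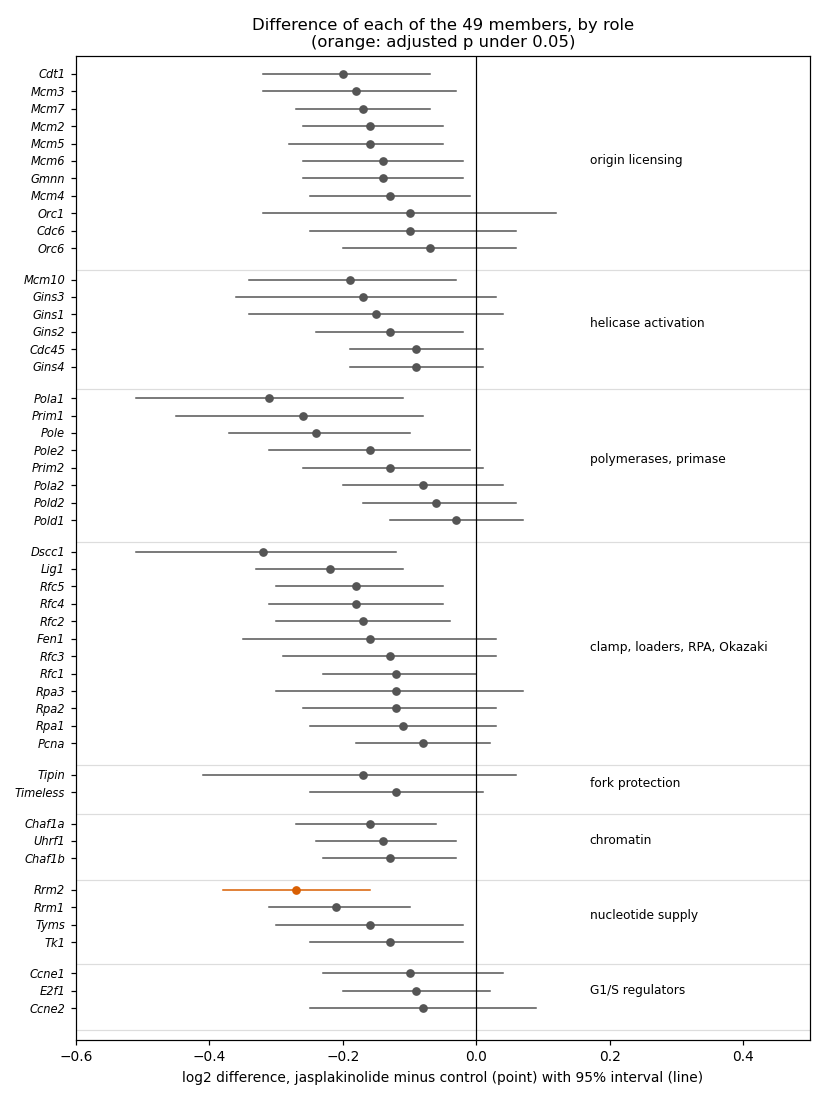
Log2 difference (jasplakinolide minus control, point) with its 95% interval (line) for each of the 49 genes, sorted within 8 roles. All points lie left of 0, from -0.32 for Dscc1 to -0.03 for Pold1, and Rrm2, in orange, is the gene with an adjusted p under 0.05.

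Across arrays the 49 genes moved together. The mean deviation of the members from each gene's mean over the 8 arrays was 0.15, -0.01, 0.11 and 0.04 in control 1 to 4, and -0.02, -0.09, -0.04 and -0.14 in jasplakinolide 1 to 4. The groups thus stood 0.01 apart between control 2 and jasplakinolide 1, while the same deviation over all genes had a median of -0.01 to 0.01 on every array. Control 2 was the lowest control array for 34 of the 49 genes, jasplakinolide 4 the lowest treated array for 34, and control 1 the highest control array for 33. After subtraction of group means the median correlation between members was 0.64 over 1176 gene pairs, which share the same 8 arrays. The 49 genes are therefore not 49 independent measurements of the treatment. This correlation was not computed for other genes, so it is not shown to be particular to the members.

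The groups did not overlap, with treated arrays lower, for 20 of the 49 genes, against 3.29% of all genes, and for none with treated arrays higher, against 3.62%. Without control 2 the count was 37, against 6.29% of all genes, and without control 2 and jasplakinolide 4 it was 38, against 7.12%. With any other 1 array left out it was 20 to 29, against 3.75% to 5.58% of all genes, since groups separate more often with fewer arrays. Without control 1 and control 3 it was 20, against 6.65%. No member passed the test without control 2 and jasplakinolide 4 (0.286% of all genes did so lower), and the median difference was then -0.15. None passed without control 1 and control 3 either (0.0201% of all genes lower), and the median was -0.09. Between arrays of the same replicate number, 36 of the 49 genes were lower with jasplakinolide in all 4 pairs, against 11.5% of all genes. By pair, 49, 38, 48 and 47 of the 49 were lower in pairs 1 to 4, as were 46.2%, 54.2%, 43.0% and 45.2% of all genes. The members' medians were -0.16, -0.09, -0.15 and -0.19.

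**Figure D3:**
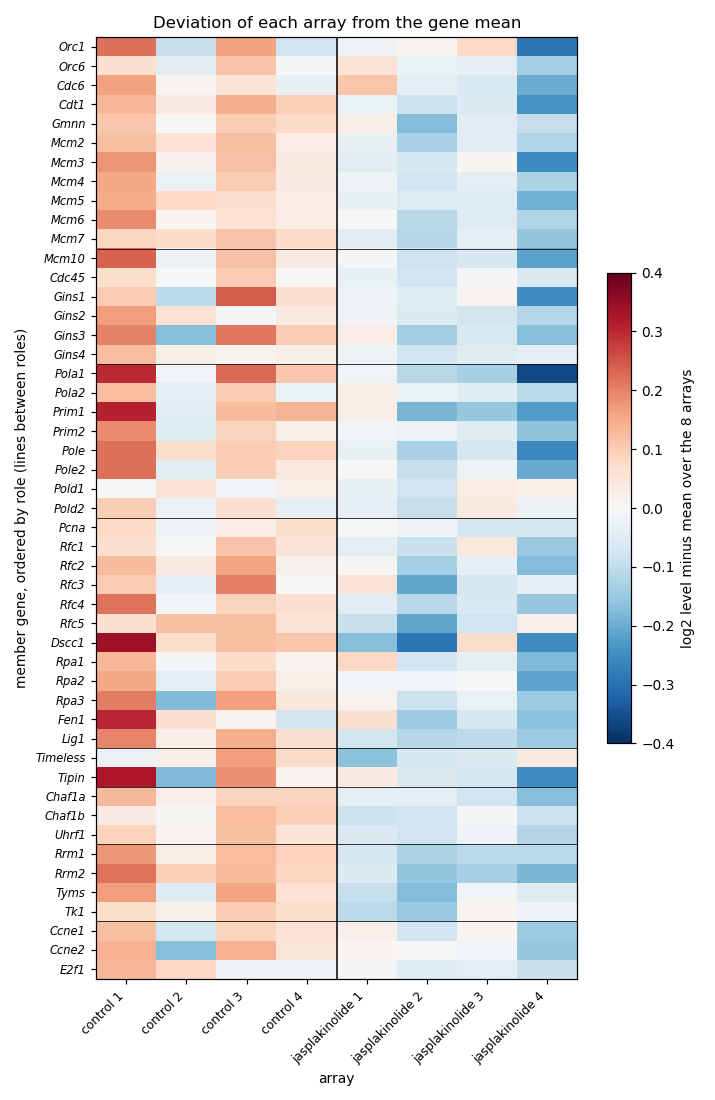
Log2 level of each of the 49 genes (rows, ordered by role) on each of the 8 arrays (columns) minus the gene's mean over the arrays, red above and blue below it. Control 1 and control 3 are red for most genes and jasplakinolide 4 is blue for most, with a mean deviation of 0.15, 0.11 and -0.14, while control 2 is near white (-0.01).

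Further members of the same pathways were also lower on balance, though not all. A higher mean was found for 8 of the 27 further nucleotide synthesis genes. The same held for 4 of the 16 genes of the E2F, DP and pocket protein list. Of 29 other replication factors 25 had a lower mean (43.6% of all genes) and none passed, with a median of -0.09. With the replicate number as a block 2 fell, against 1.08% of all genes. Those were Clspn, the checkpoint adaptor claspin (-0.24 ± 0.07, SE; adjusted p = 0.217, and 0.0456 with the block), and Pclaf, a PCNA-binding factor (-0.22 ± 0.05; 0.132, and 0.0477). Pclaf was named after its values were seen. Ticrr, needed for origin firing, differed by -0.23 ± 0.09. For comparison, all 26 measured genes of a mitosis list had a lower mean, 11 fell (0.336% of all genes), and their median was -0.29. With the block 18 of the 26 fell, against 1.08% of all genes. Omitting an array gave 0 (control 4), 1 (controls 1 and 3, jasplakinolide 1 and 2), 2 (jasplakinolide 3 and 4) or 16 (control 2). The share of all genes that fell moved too, to 0.416% without control 2 and to 0.0401% to 0.1% without any other 1 array. Without control 1 and control 3 together the mitosis count was 0 (0.0201% of all genes). Without control 2 and jasplakinolide 4 together it was 11 (0.286%). Cenpe, a kinetochore motor, differed by -0.40 ± 0.06 (SE) and Cdc20, the activator of the anaphase-promoting complex, by -0.39 ± 0.05. The difference between the replication and the mitosis lists was not tested.

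Markers of cell types also differed between the groups in these bulk samples, in which fewer cells of a type and less RNA per cell cannot be told apart. Over all genes 0.336% fell and 0.436% rose, and 1.08% fell with the block. Of the 8 endothelial markers 1 fell (Robo4, adjusted p = 0.017 and 0.0207 to 0.0729 with 1 array left out; 3 with the block), 7 had a lower mean, and their summed level on the linear scale was 22900 to 23300 in control and 19500 to 21400 with jasplakinolide. The summed level of the 8 smooth muscle markers, of which 5 rose, was 22900 to 23200 in control and 31300 to 33300 with jasplakinolide. That of 6 fibroblast markers, of which none passed (1 lower with the block), was 9960 to 13200 and 8670 to 10800. For 6 macrophage markers, of which none passed (1 lower with the block), it was 2500 to 2760 and 2630 to 2810. The macrophage sum rests most on its brightest gene, Lyz2, which differed by 0.17 log2, while 4 of the 6 had a lower mean. The part of a shift between cell types in the replication result was not tested.

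**Figure D4:**
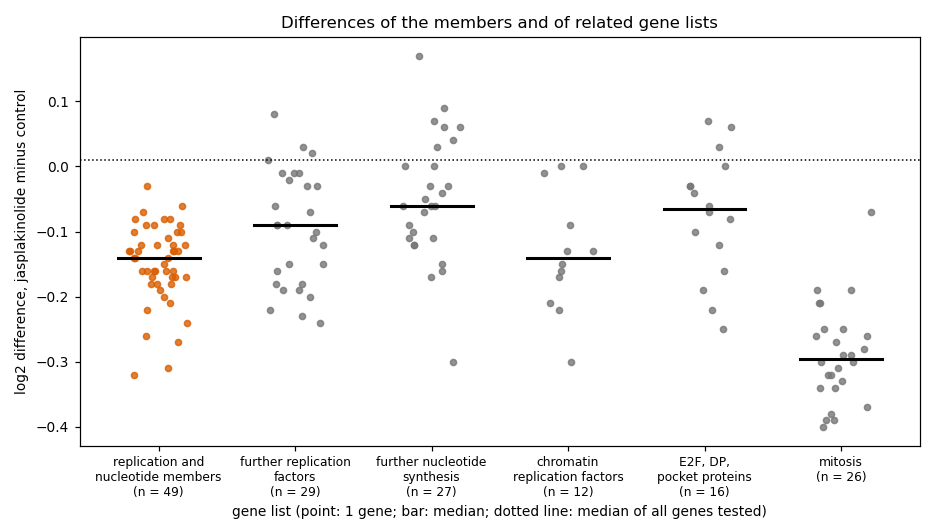
Log2 difference (jasplakinolide minus control) of each gene (point) in the 49 members and in 5 related lists, with the list's median (bar) and the median of all genes tested (dotted line, 0.01). The members lie between -0.32 and -0.03 around a median of -0.14, and the mitosis genes lie lower, around -0.29.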

How the data were processed

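RNA of 8 samples was measured on Affymetrix arrays. The authors deposited log2 levels for 35556 probe sets. Per the submitters' processing notes they come from RMA in Affymetrix Expression Console, whose version is not stated there. Names came from the array's annotation (21789 had 1 symbol, 1621 several, 12146 none), and only those with 1 symbol were used. Per gene the probe set with the highest mean was kept, which left 19938 genes; 3 members had a second probe set. No filter on dim probe sets was applied.

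The treated and control arrays were compared in R 4.3.3 with limma 3.58.1 (lmFit, eBayes, two-sided, 6 residual and 3.43 prior degrees of freedom), adjusted over all genes with the Benjamini-Hochberg method. Exact permutation tests used scipy 1.17.1, and figures matplotlib 3.10.9 in Python 3.11.15. In simulated data of this comparison (19938 genes, 200 changed, 10 runs) the fit found 21.7% of genes with a log2 change of 0.25, 90.7% of those with 0.5 and 100% of those with 1, and 5.97% of calls were false. The simulation drew each gene independently, without shared differences between arrays, so these shares may not hold for the real arrays.

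The members and lists were chosen with earlier results of these data known, so no list is tested. Named with values by array are members past the test and the 3 largest differences of each role (all 4 for nucleotide supply), and the 2 largest of each further list. The groups share replicate numbers. For each of the 4 numbers, the deviations of the arrays from their group means had a correlation of 0.24 to 0.56 over genes, so the numbers were taken to pair the arrays, from the data and not the labels. For 2 arrays the closest partner had a different number: control 2 and jasplakinolide 4 had a correlation of 0.52 with each other, so the data do not single out this pairing for every array. Blocked values are given where they change a call or a count. Alternatives were the replicate block, brightness filters, 3 normalizations, another variance prior, array weights, the mean of probe sets, a threshold of 0.01 and leaving out each array. Leaving out control 2 and jasplakinolide 4 together, and control 1 and control 3 together, was added after seeing the data. Scan dates were not used here.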

Additional observations from a re-analysis of the deposited data

Results flagged for a closer look

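In 2 of 48 groups of 4 arrays examined among the 24 named genes, 1 array lay far from the other 3; chance gives about 1 in 20. Chaf1b was 10.06 log2 in jasplakinolide 3, against 9.98 to 9.99 in the other treated arrays. Ccne2 was 9.69 log2 in jasplakinolide 4, against 9.83 to 9.85 in the other treated arrays.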

How the results depend on the processing

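All members tested had a lower mean under every alternative run except without control 1 and control 3 (45 of 49, with Ccne2 at 0.02 and a median of -0.09), and none passed as higher. The count that fell, 1 of 49, was 0 after median centring, at a threshold of 0.01, without control 2 and jasplakinolide 4, without control 1 and control 3, and without any 1 array (0 to 0). It was 3 with array weights and also 3 with a robust, intensity-dependent variance prior, 4 among the brighter 50% of genes, and 6 after cyclic loess or a second quantile normalization. The 6 were Cdt1, Lig1, Mcm7, Pole, Rrm1 and Rrm2 in both. The replicate block, which left 1 member (Rrm2, adjusted p = 0.0275), changed no other member's call. Over all genes the split was 87 higher and 67 lower, and 129 higher and 168 lower after cyclic loess. The median stayed between -0.16 and -0.12 with 1 array left out. Members with separate groups numbered 20 to 37 in those fits (3.75% to 6.29% of all genes), 38 without control 2 and jasplakinolide 4 (7.12%) and 20 without control 1 and control 3 (6.65%), against 20 and 3.29% with all arrays. Members lower in every pair numbered 36 to 47 with 1 array, and so 1 pair, left out. The 47 were found without pair 2, against 19.4% of all genes. With all 4 pairs it was 36, against 11.5%, since fewer pairs are more often all lower. Among 478 values of the 24 named genes under alternatives, 448 kept direction and call, 17 gained a call, 12 lost it (all Rrm2) and 1 reversed (Ccne2, above). Leaving out 1 array moved the difference of 15 of the 49 members, none of them called, by over 1.5 times in at least 1 case. The causes were not tested. With 4 arrays per group, differences near 0.14 lie below the size that this fit mostly recovers.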
